A study of Caenorhabditis elegans with 8 samples.

Results

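The hedgehog-related genes of Caenorhabditis elegans and the patched-related genes were followed through 3 stages of the temperature-sensitive mutant glp-1(q224) III, strain JK1107. Members were all genes whose symbol begins with wrt, grd, grl, hog, qua, ptr or ptc followed by a number and that had at least 1 probe set of their own on the Affymetrix C. elegans GeneChip, and no measured value was used to choose them. There were 80 such genes among 17118 genes with a probe set of their own. A further 8 genes of these families in the RefSeq annotation, ptc-2 among them, had no probe set of their own. The hedgehog-related side held 54 genes, namely 30 grl, 12 grd, 10 wrt, 1 hog and 1 qua gene, and the patched-related side held 26, namely 24 ptr and 2 ptc genes. RNA was compared between 3 pools of mixed-stage embryos obtained by bleach and sodium hydroxide from parents kept at 15 °C, 3 pools of young adults on day 1 of adulthood and 2 pools of old adults on day 6, with 1 array for each pool of many animals. Both adult groups came from eggs hatched at 20 °C and were raised at 25 °C, a temperature at which this mutant makes almost no germ cells, and the old adults were moved to fresh plates every 2 days. All 3 groups carried the mutation, no wild-type animals were included, and the embryos had not been shifted to 25 °C, so stage, temperature and the presence of germ cells cannot be told apart between embryos and adults.

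C. elegans has no true Hedgehog ligand and no Smoothened receptor. It has instead an expanded set of secreted proteins in which Warthog (wrt), Groundhog (grd), Ground-like (grl) or Quahog (qua) amino-terminal domains take the place of the signalling domain, and some of them keep the Hog domain that cuts the Hedgehog precursor of other animals. The ptc and ptr proteins are multi-pass membrane proteins with a sterol-sensing domain, related to the Hedgehog receptor Patched. Many members of both families are made by epidermal and glial cells, where they act in the moulting cycle, the apical matrix and the traffic of sterols and membrane.

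Expression was given as the deposited intensity divided by the median of its array (normalized expression, in multiples of the array median). The noise level of an array was the size that 95% of its negative intensities did not exceed. In intensity it was similar in all stages, between 24.4 and 27.7 in embryos, between 28.7 and 35.0 in young adults and between 29.5 and 33.8 in old adults, but the medians were 56.2 to 64.2, 19.1 to 21.9 and 32.4 to 36.9. In multiples of the median the noise level was therefore between 0.390 and 0.439 in embryos, between 1.37 and 1.68 in young adults and between 0.911 and 0.917 in old adults, and a gene had to be brighter relative to its array to be seen in young adults than in the other groups. Marker lists were read for embryos, adult soma and germ line, and no list was made to tell young from old adults. Of 12 embryo markers, 10 were above the noise level on all embryo arrays, 5 on all young adult arrays and 6 on all old adult arrays. Summed normalized expression of 4 adult markers (3 vitellogenins and the collagen col-19) lay between 0.174 and 0.274 in embryos, between 1902 and 2285 in young adults and between 1010 and 1099 in old adults, and that of 7 germ-line genes was 57.1 to 77.1, 1.54 to 3.20 and 3.54 to 3.66.

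More of the members were seen in embryos than in either adult group. On all arrays of the stage, 47 of 80 members were above the noise level in embryos, 21 in young adults and 28 in old adults. The shares of all genes had the same order, 55.3%, 38% and 48.3%. The patched-related genes were the more widely detected, with 21, 10 and 14 of 26, against 26, 11 and 14 of 54 hedgehog-related genes. By pattern, 18 members were above the noise level on all 8 arrays, 16 on all embryo arrays and on no adult array, and 2 (grd-3 and grl-22) on no embryo array but on all arrays of an adult group. These patterns depend on the noise level of each stage, lowest in embryos, and were not counted over all genes. Seen only in embryos need not mean higher there. grl-12, among the 16, had 0.688, 0.475 and 0.707 in embryos, 0.445, 1.03 and 0.383 in young adults and 0.910 and 0.834 in old adults. For 21 members, 19 of them hedgehog-related, no array rose above it, and the other 23 were seen on some arrays only. The plot of genes above the noise level sets these counts beside those of all genes.

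**Figure D1:**
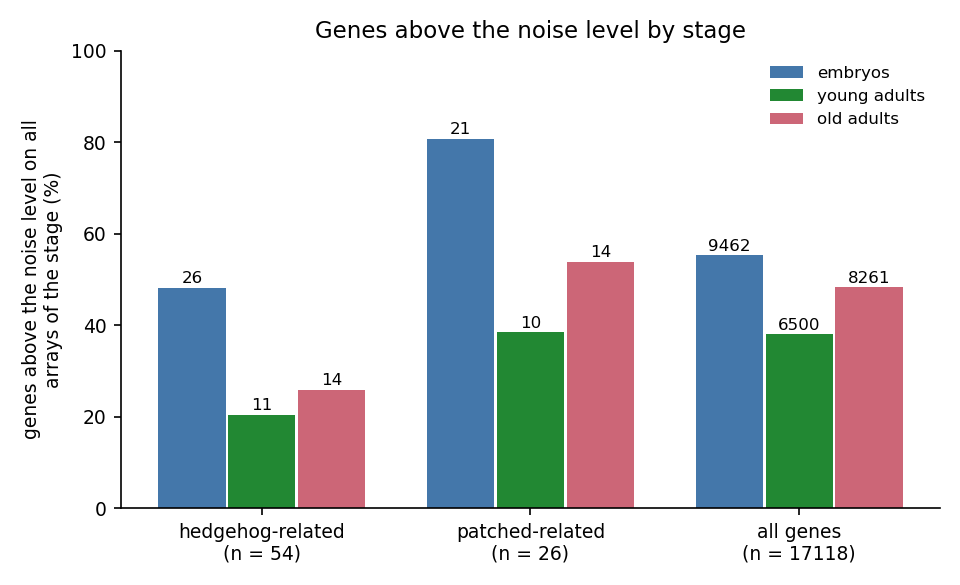
Percentage of genes above the noise level on all arrays of a stage (y axis, %), for the 54 hedgehog-related genes, the 26 patched-related genes and all 17118 genes. Bars stand for embryos, young adults and old adults, and the number above each bar is the count of genes. Both sides and all genes have their tallest bar in embryos and their shortest in young adults.

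Between old and young adults, few members differed, in shares near those of all genes. With limma and Benjamini-Hochberg adjustment over all genes at 0.05, 3 of 80 members were higher in old adults, against 2.74% of all genes, and 6 were lower, against 4.44%. Asking in addition that the higher group be above the noise level on all its arrays left 3 higher (1.89% of all genes) and 4 lower (3.66%). The 3 that rose were 1 hedgehog-related gene (grl-21) and 2 patched-related genes (ptr-22 and ptc-1), and the 4 that fell (grd-5, grd-14, grl-5 and grl-6) were hedgehog-related. None of the 26 patched-related genes was called lower by limma, and 1 was lower at an unadjusted p under 0.05. Leaving out 1 array moved the count of higher members between 1 and 8 and that of lower members between 1 and 6. The 8 came without young adult replicate 3 and both counts of 1 without old adult replicate 2, and of the 7 called members that were seen on all arrays of the higher group, grl-21 alone kept its call without that old adult array.

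A single value at the floor of 0.01 intensity can widen the spread of a gene or make a call where nothing was measured, so the comparisons were repeated with every normalized value below 1.68 raised to 1.68 on every array (the common floor). This value is the highest noise level of any array, 47 members and 10121 genes exceeded it somewhere, and the setting was chosen after seeing the data. Old adults then had 3 members higher (ptr-22, ptr-24 and ptc-3), against 6.31% of all genes tested, and 5 lower (grd-3, grd-5, grd-14, grl-4 and grl-6), against 9.49%. In this setting the call of grl-21 was lost, and the 3 higher members were patched-related and the 5 lower ones hedgehog-related. No test of a difference between the 2 sides was run. ptr-24, ptc-3, grl-4 and grd-5 had no value below 1.68, and their log2 differences were the same in both settings. Their adjusted p-values thus moved only with the genes tested and the spread estimated over genes. A group raised to 1.68 on all its arrays adds no spread, which can make a p-value smaller. Calls among all genes rose too, from 2.74% higher and 4.44% lower with the floor of 0.01.

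The embryo-to-adult step was far wider. In young adults 18 members were higher and 18 lower than in embryos, against 31.2% and 22.5% of all genes. Of them, 11 and 16 had the higher group above the noise level on all its arrays, against 20.3% and 20.9% of all genes. In old adults 21 were higher and 23 lower than in embryos, against 27.1% and 17.8% of all genes. With the higher group seen throughout they were 16 and 18, against 21.3% and 16.3% of all genes. The shares of members were therefore 22.5% in each direction for young adults and 26.2% higher and 28.8% lower for old adults, which is below the share of all genes for higher calls in young adults and above it for lower calls in old adults. With the common floor, 11 were higher and 19 lower in young adults (against 33.7% and 32.6% of all genes tested) and 15 and 21 in old adults (against 32.6% and 29.0%). Leaving out old adult replicate 1 or 2 lowered the 21 higher members of old adults to 12 or 13. Against embryos, the median log2 difference of hedgehog-related genes was -0.75 in young and -0.90 in old adults and that of patched-related genes -0.73 and 0.52, beside 0.38 and 0.45 over all genes. Between old and young adults these medians were -0.23 for hedgehog-related genes, 0.35 for patched-related genes and -0.01 for all genes. They include genes never above the noise level, whose values the floor of 0.01 sets. With the common floor the medians against embryos were -0.11 and -0.45 for hedgehog-related genes, -0.07 and 0.42 for patched-related genes and 0.04 and 0.0047 for all genes, and between old and young adults they were -0.10 and 0.085 for hedgehog-related and patched-related genes. Each stage stands in more than one of these comparisons, so the comparisons are not independent of each other. As the arrays measured whole animals, fewer cells of a type and less RNA per cell cannot be told apart in any of them.

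**Figure D2:**
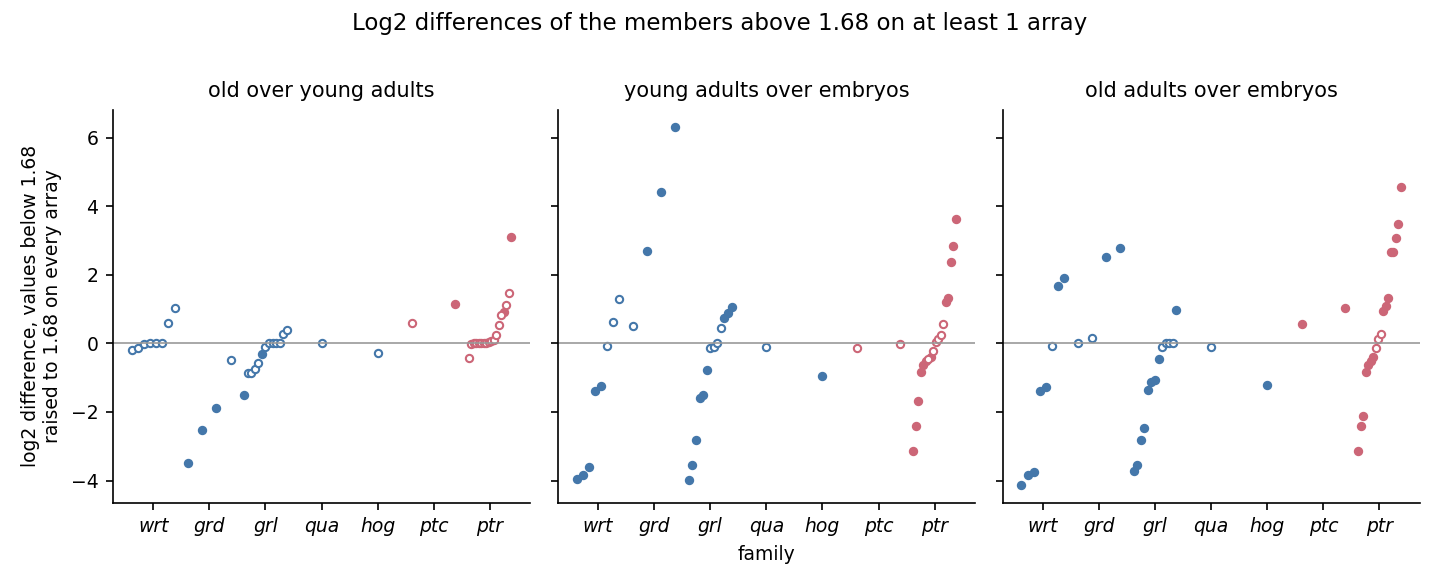
Log2 difference of each of the 47 members above 1.68 on at least 1 array (y axis), by family (x axis), with all values below 1.68 raised to 1.68. Blue points are hedgehog-related and red points patched-related genes, filled where the adjusted p was below 0.05. In old over young adults the filled points are 3 patched-related genes above 0 and 5 hedgehog-related genes below it.

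Of 10 Warthog genes, 5 were lower in young adults than in embryos (22.5% of all genes were) and 5 in old adults (17.8% of all genes), with 8 above the noise level on all embryo arrays, 1 on all young adult arrays and 3 on all old adult arrays. wrt-10, which has been linked with the timing of reproductive decline, had 33.2, 22.5 and 18.9 multiples of the array median in embryos and was at the floor on all 5 adult arrays. It was at least 16.0-fold lower in young adults (adjusted p = 3.6e-05, limma) and at least 26.5-fold lower in old adults (adjusted p = 7.3e-05) than in embryos, with the adult values raised to the noise level for the fold. Its immediate neighbour in the annotated gene order, wrt-1, had 21.2, 19.3 and 28.4 in embryos, 1.31, 1.05 and 2.23 in young adults and 1.07 and 1.46 in old adults. wrt-1 was at least 12.7-fold lower in young adults (log2 difference -3.97 ± 0.32 SE, adjusted p = 7.5e-05) and 18.2-fold lower in old adults (adjusted p = 0.00014) than in embryos. These 2 adjacent genes had no overlap between the embryo arrays and any adult array.

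wrt-2, a gene of the epidermal seam and hypodermis, had 28.2, 25.2 and 35.6 in embryos, 2.47, 1.06 and 1.08 in young adults and 0.254 and 0.475 in old adults. It was at least 16.4-fold lower in young adults (adjusted p = 0.00013) and at least 32.1-fold lower in old adults (adjusted p = 7.9e-05) than in embryos. Its old adult values were also below all young adult values (adjusted p = 0.044), but a single young adult array exceeded its noise level and the common floor left no difference (adjusted p = 0.76). wrt-6 followed the same order with lower values, 3.91, 3.86 and 4.44 in embryos, 0.866, 0.988 and 1.76 in young adults and 0.761 and 0.412 in old adults, at least 2.47-fold lower in young adults (adjusted p = 0.0043) and at least 4.44-fold lower in old adults (adjusted p = 0.0013) than in embryos. wrt-8 had 1.17, 1.26 and 2.03 in embryos and was at the floor in all adults. Its mean log2 value in embryos did not exceed the young adult noise level, so no fold is given for young adults, and the common floor ended both calls (adjusted p = 0.32 for young and 0.40 for old adults). wrt-4 was above the noise level in embryos only, at 3.28 to 6.19. With the common floor it was called lower in both adult groups (adjusted p = 0.00052 for young and 0.0012 for old adults). With the floor of 0.01 it was not (adjusted p = 0.058 and 0.14). The common floor set all adult arrays of wrt-4 to the same value, so they added no spread, which can make a p-value smaller.

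wrt-3 and wrt-5 ran the other way. wrt-5, needed for development of the hypodermis, had 1.74, 1.93 and 1.69 in embryos, 2.16, 3.60 and 10.8 in young adults and 7.12 and 6.14 in old adults. It was 3.71-fold higher in old adults than in embryos (log2 difference 1.89 ± 0.60 SE, adjusted p = 0.040), whereas the young adult arrays were spread too widely for a call against embryos (adjusted p = 0.082). The wrt-5 call held in 10 of 18 settings, and was lost without rescaling (log2 difference 1.08, adjusted p = 0.27), with no variance trend and without any 1 of the embryo or old adult arrays. wrt-3 had 0.190, 0.180 and 0.394 in embryos, 1.25, 1.39 and 6.20 in young adults and 5.70 and 4.93 in old adults, at least 12.6-fold higher in old adults than in embryos (adjusted p = 0.0029). In both genes young adult replicate 3 was several times above the other young adult arrays, and neither differed between old and young adults beyond that spread (adjusted p = 0.37 for wrt-3 and 0.61 for wrt-5).

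qua-1, the Quahog gene required for moulting, and hog-1, which carries the Hog domain, were seen mainly in embryos. qua-1 had 1.09, 1.60 and 2.12 in embryos, was at the floor on all young adult arrays and 1 old adult array and stood at 0.137 on the other, so that it was at least 1.02-fold lower in young adults (adjusted p = 0.0040) and at least 1.69-fold lower in old adults (adjusted p = 0.036) than in embryos. The size of these steps could not be read further, since embryo values were close to the adult noise level, and the common floor ended both calls (adjusted p = 0.30 and 0.38). hog-1 had 3.84, 3.62 and 4.22 in embryos, 1.70, 0.877 and 2.89 in young adults and 0.488 and 0.90 in old adults. It was at least 4.25-fold lower in old adults than in embryos (adjusted p = 0.0066, and 0.052 without old adult replicate 1), and the differences of young adults from embryos (adjusted p = 0.054) and of old from young adults (adjusted p = 0.18) did not pass.

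**Figure D3:**
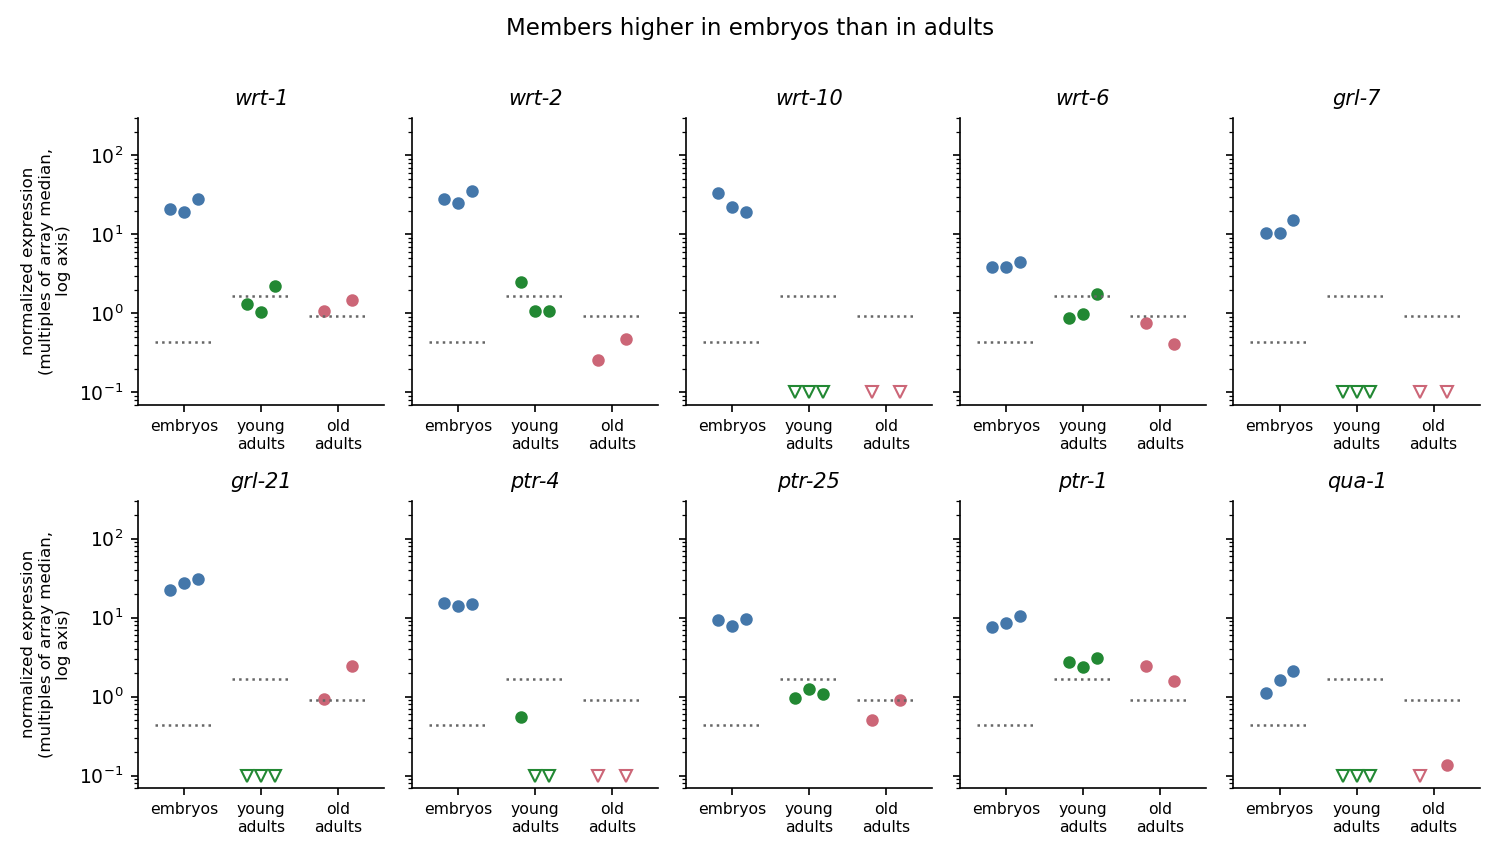
Normalized expression (multiples of the array median, log axis) of 10 members in embryos, young adults and old adults, 1 point for each array. Dotted lines mark the highest noise level of each stage and open triangles are values below 0.1 drawn at 0.1, and embryo points lie above all adult points in each panel.

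In the Groundhog family, 3 genes peaked in young adults. Of 12 grd genes, 8 were above the noise level on no embryo array, 8 on no young adult array and 9 on no old adult array, so these 3 genes carried most of what was measured. grd-3 was at the floor on 1 embryo array and had 0.197 and 0.226 on the others, with 152, 111 and 135 in young adults and 16.1 and 8.37 in old adults. It was at least 314-fold higher in young adults than in embryos (adjusted p = 0.0057) and at least 27.7-fold higher in old adults than in embryos (adjusted p = 0.040, a call that held in 9 of 19 settings and was lost without either old adult array). Old adults were 11.3-fold lower than young adults with no overlap, which did not pass with the floor of 0.01 (adjusted p = 0.53) and passed with the common floor (log2 difference -3.50, adjusted p = 0.00043). The embryo array at the floor spread the grd-3 values widely, and the fit shared 1 estimate of spread over the 3 stages. With the common floor, all embryo arrays of grd-3 were set to the same value and added no spread. This can make the p-value with the common floor smaller.

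grd-5 had 2.46, 2.56 and 3.94 in embryos, 70.7, 44.3 and 75.0 in young adults and 23 and 11.9 in old adults. Young adults were 21.2-fold (adjusted p = 6.4e-05) and old adults 5.68-fold (adjusted p = 0.0018) higher than embryos, and old adults were 3.73-fold lower than young adults (log2 difference -1.90 ± 0.38 SE, adjusted p = 0.031). grd-14 had 1.72, 1.86 and 3.08 in embryos, 19, 7.26 and 18.9 in young adults and 3.35 and 1.24 in old adults. It was 6.42-fold higher in young adults than in embryos (adjusted p = 0.0045) and 6.75-fold lower in old adults than in young adults (log2 difference -2.76 ± 0.59 SE, adjusted p = 0.039), while old adults and embryos overlapped (adjusted p = 0.93). Between the adult stages the direction was kept in all settings, but the call of grd-5 held in 10 of 19 and that of grd-14 in 8 of 19. Both were lost with quantile normalization (adjusted p = 0.097 for grd-5 and 0.059 for grd-14), no rescaling, only the 2 groups compared and no variance trend, and without embryo replicate 1 or 2, young adult replicate 1 or 3 or old adult replicate 2 (adjusted p = 0.19 for each without the last). For all 3 genes the lowest young adult array stood above the highest old adult array.

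grd-10, the immediate neighbour of grd-3, had 0.266, 0.221 and 0.147 in embryos, 4.69, 1.47 and 1.58 in young adults and was at the floor on both old adult arrays. Only 2 young adult arrays were above the noise level, and the common floor left no difference between old and young adults (adjusted p = 0.52), so no fold is given. grd-1 was above the noise level only in embryos and only through 1 of its 2 probe sets, at 0.497, 0.595 and 0.730. That probe set had similar values in adults, 0.767, 0.804 and 0.250 in young and 0.706 and 0.455 in old adults, below the higher adult noise levels.

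Of 14 hypodermis and cuticle genes, 4 (dpy-7, dpy-13, rol-6 and sqt-3) were lower in old adults than in young adults (28.6%, against 4.44% of all genes) and none was called higher by limma (0 at an unadjusted p under 0.05 as well). The collagen gene dpy-13 had 27.8 and 19.6 in old adults, against 442, 307 and 353 in young adults, and sqt-3 had 15.6 and 9.14, against 61.6, 74.0 and 65.0. Summed over 6 hypodermis markers, old adults had 24.4 to 37.8 and young adults 236 to 382, with 3 of the 6 above the noise level on no old adult array and dpy-7 at the floor on both, and embryos had 175 to 194. Most of the young adult sum came from the collagen col-19. It had 6.77 and 3.0 in old adults against 287, 232 and 145 in young adults, with no overlap. The fall of col-19 did not pass limma without the common floor (adjusted p = 0.29). It passed with the common floor (log2 difference -5.56, adjusted p = 0.0003). All embryo arrays of col-19 were then set to the same value and added no spread, which can make this p-value smaller. The hypodermal factor elt-3 had 15.2 and 12.2 in old adults against 15.2, 14.9 and 19.9 in young adults (adjusted p = 0.41). The part of these differences in those of grd-3, grd-5, grd-14 and the grl genes was not tested.

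**Figure D4:**
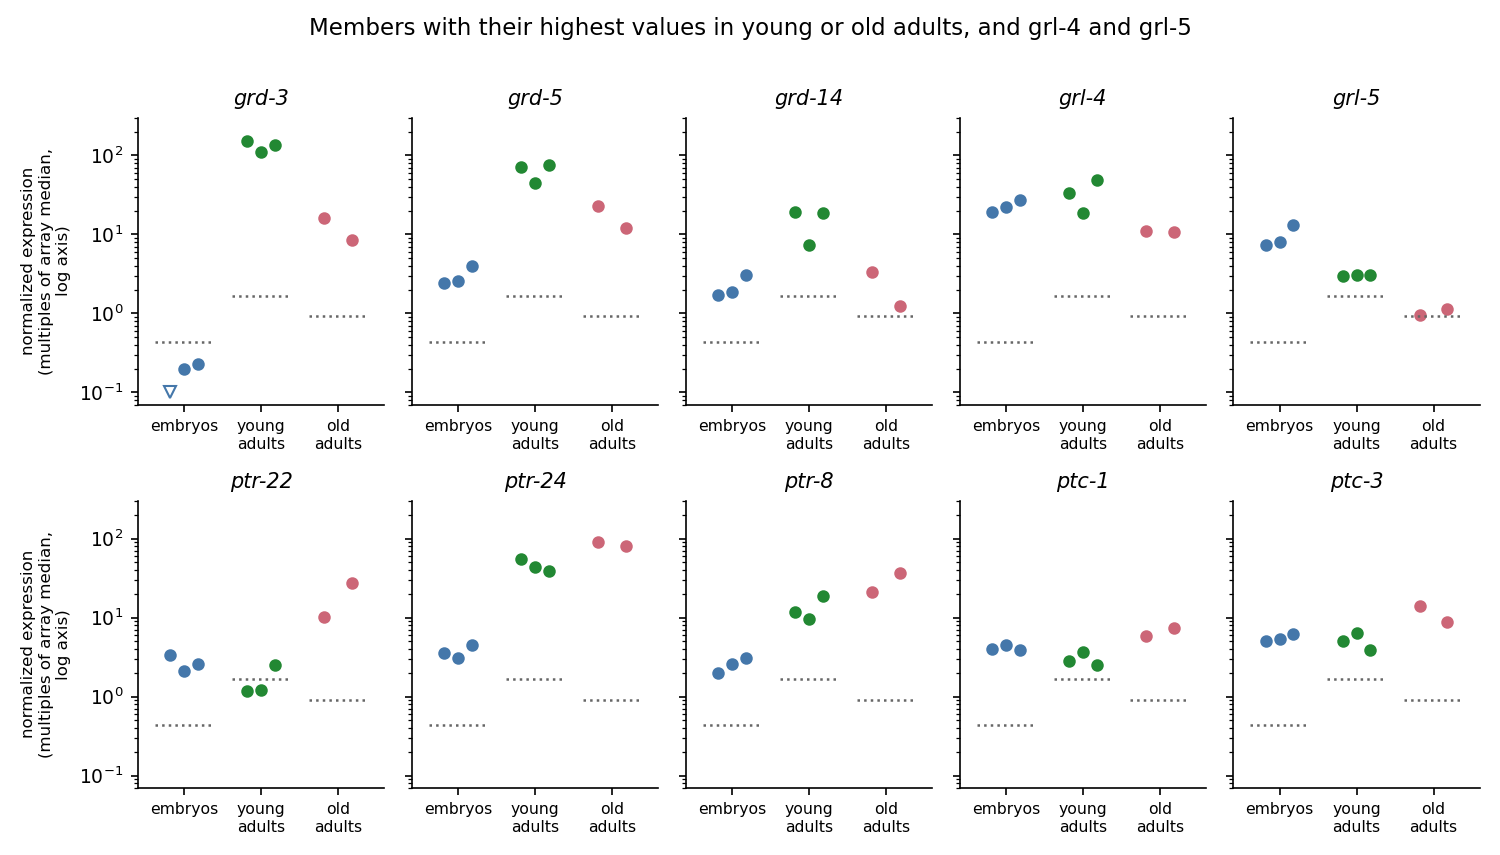
Normalized expression (multiples of the array median, log axis) of 10 members in embryos, young adults and old adults, 1 point for each array. Dotted lines mark the highest noise level of each stage and the open triangle is a value below 0.1 drawn at 0.1. In the upper row, grd-3, grd-5, grd-14, grl-4 and grl-5 have old adult points below their young adult points, and in the lower row the 5 patched-related genes have old adult points above them. Without the common floor, grd-3 and grl-4 were not called lower (adjusted p = 0.53 and 0.069, limma). Of patched-related genes, only ptc-1 and ptr-22 were then called higher. Some members not drawn went the other way. grl-21 was called higher, and wrt-3 and wrt-5 were higher without a call (log2 difference 1.26 and 0.60). ptr-25 and ptr-1 were lower without a call (log2 difference -0.70 and -0.46).

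The Ground-like family was the largest, with 12 of 30 genes above the noise level on all embryo arrays, 7 on all young adult arrays and 8 on all old adult arrays. In young adults 6 were higher (20.0%, against 31.2% of all genes) and 4 lower (13.3%, against 22.5%) than in embryos, and in old adults 5 were higher (16.7%, against 27.1%) and 8 lower (26.7%, against 17.8%). Between old and young adults 1 was higher and 2 were lower (3.33% and 6.67%, against 2.74% and 4.44%). grl-21, which acts with ptr-24 in the response of lipid stores to bacterial metabolites, had 22.3, 27.7 and 30.7 in embryos, was at the floor on all 3 young adult arrays and had 0.929 and 2.41 in old adults. It was at least 17.6-fold lower in young adults (adjusted p = 8.2e-06) and 17.8-fold lower in old adults (adjusted p = 0.0035) than in embryos. The higher value in old than in young adults was called (adjusted p = 0.00063), but the old adult values overlapped the young adult noise level, no fold could be given, and the common floor ended the call (adjusted p = 0.55). grl-7 had 10.5, 10.5 and 15.1 in embryos and lay below 0.01 on all adult arrays, at least 7.84-fold lower in young adults (adjusted p = 0.00028) and at least 13-fold lower in old adults (adjusted p = 0.0011). grl-15 had 18.5, 16.4 and 24.4 in embryos, 1.52, 0.785 and the floor in young adults and the floor and 0.0541 in old adults, at least 21.3-fold lower in old adults than in embryos (adjusted p = 0.034, and 0.21 without old adult replicate 1). The adult arrays of these genes were thus at or close to the noise. Only the lower bound of the step is known, except for grl-21 in old adults, which was above the noise level on both arrays.

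grl-4, grl-5, grl-6 and grl-16 were above the noise level at all stages and had their lowest values in old adults. grl-5 had 7.44, 8.05 and 13.1 in embryos, 2.93, 3.09 and 3.07 in young adults and 0.945 and 1.13 in old adults, a fall of 2.93-fold in old against young adults (log2 difference -1.55 ± 0.26 SE, adjusted p = 0.018) and of 8.93-fold in old adults against embryos (adjusted p = 0.00013). grl-4 had 11.2 and 10.6 in old adults, against 33.0, 18.5 and 49.3 in young adults, 2.86-fold lower (adjusted p = 0.069, and 0.033 with the common floor). grl-6 had 1.31 and 1.17 in old adults, against 2.11, 2.10 and 2.01 in young adults, 1.68-fold lower with an adjusted p of 0.0496 at the edge of the threshold, a call that held in 5 of 19 settings. Without rescaling of the arrays grl-6 showed no difference (log2 difference 0.00), and grl-5 passed neither with quantile normalization (adjusted p = 0.063) nor with the common floor (adjusted p = 0.065). grl-16 had 2.92 and 2.88 in old adults and 6.31, 6.32 and 10.5 in embryos, 2.58-fold lower (adjusted p = 0.0043), and its old adults lay below all young adults without passing the test (adjusted p = 0.21).

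grl-9, grl-22 and grl-27 were higher in young adults than in embryos. grl-22 had 2.55, 2.38 and 4.81 in young adults and 0.325, 0.245 and 0.251 in embryos, at least 7.34-fold higher (adjusted p = 0.00018), with 1.28 and 1.56 in old adults. grl-9 had 4.97, 3.46 and 2.47 in young adults, against 1.19, 0.667 and 0.554 in embryos, 4.59-fold higher (adjusted p = 0.0022), and old adults had 3.30 and 3.21. grl-27 had 4.19, 2.97 and 1.79 in young adults, against 0.805, 0.648 and 0.269 in embryos, at least 4.78-fold higher (adjusted p = 0.0064). Without rescaling, the rises of grl-9 and grl-27 did not pass (adjusted p = 0.14 and 0.19). grl-2, a gene of the excretory duct and pore and of socket glia, was above the noise level on 1 embryo array only, and grl-18, a gene of socket glia, on none. The neighbouring genes grl-28, grl-29, grl-30 and grl-31 were above the noise level on no array.

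Both patched genes were seen at every stage and stood highest in old adults. ptc-1, which acts in cytokinesis of the germ line, had 4.01, 4.53 and 3.89 in embryos, 2.81, 3.70 and 2.51 in young adults and 5.78 and 7.29 in old adults. It was 2.19-fold higher in old than in young adults (log2 difference 1.13 ± 0.21 SE, adjusted p = 0.026) and 1.57-fold higher than in embryos (adjusted p = 0.043). The call between adult stages was lost with quantile normalization (adjusted p = 0.065), with the common floor (adjusted p = 0.12) and with the brighter of its 2 probe sets alone (log2 difference 0.55, adjusted p = 0.30). Those 2 probe sets gave unlike levels, 14.7 and 18.2 against 2.26 and 2.92 in old adults and 8.18, 10.8 and 16.0 against 0.964, 1.27 and 0.395 in young adults, and on the brighter one a young adult array overlapped the old adult arrays. Against embryos, the direction of ptc-1 turned without rescaling (log2 difference -0.17, adjusted p = 0.57), and both of its calls held in 8 of 19 settings.

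ptc-3, required for osmoregulation and larval development, had 4.99, 5.35 and 6.19 in embryos, 5.08, 6.39 and 3.89 in young adults and 14 and 8.89 in old adults. It was 2.03-fold higher in old adults than in embryos (log2 difference 1.02 ± 0.28 SE, adjusted p = 0.023), and young adults and embryos overlapped (adjusted p = 0.68). Old adults were 2.22-fold above young adults with no overlap, which missed the threshold with the floor of 0.01 (adjusted p = 0.056) and passed with the common floor (adjusted p = 0.033). The call against embryos held in 12 of 18 settings, and was lost with quantile normalization (adjusted p = 0.099) and without rescaling (log2 difference 0.21, adjusted p = 0.66).

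Of 24 ptr genes, 5 were higher (20.8%, against 31.2% of all genes) and 7 lower (29.2%, against 22.5%) in young adults than in embryos, and 8 were higher (33.3%, against 27.1%) and 6 lower (25.0%, against 17.8%) in old adults. Only ptr-22 was called between old and young adults, and ptr-13 and ptr-19 were above the noise level on no array. Among those higher in adults, ptr-24, the partner of grl-21 in the response to bacterial metabolites, had 3.55, 3.07 and 4.48 in embryos, 54.4, 43.3 and 39.2 in young adults and 91.3 and 79.9 in old adults. It was 12.4-fold higher in young adults (log2 difference 3.63 ± 0.19 SE, adjusted p = 1.7e-05) and 23.4-fold higher in old adults (log2 difference 4.55 ± 0.21 SE, adjusted p = 2.1e-05) than in embryos. Old adults were 1.89-fold above young adults with no overlap, just outside the threshold (adjusted p = 0.051, and 0.030 with the common floor). ptr-24 was thus lowest in embryos, where its partner grl-21 was highest. Between the adult stages both had their higher values in old adults, those of grl-21 close to the noise level.

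ptr-22 was the one ptr gene called between the adult stages. It had 10.1 and 27.2 in old adults, against 1.19, 1.20 and 2.50 in young adults, and 3.38, 2.08 and 2.61 in embryos. Old adults were at least 8.97-fold higher than young adults (log2 difference 3.44 ± 0.51 SE, adjusted p = 0.011) and 6.29-fold higher than embryos (adjusted p = 0.0057). The call was kept with quantile normalization (adjusted p = 0.023), without rescaling (adjusted p = 0.0051) and with the common floor (adjusted p = 0.0031), and was lost with only the 2 groups compared (adjusted p = 0.061), with the replicate block (adjusted p = 0.051) and without old adult replicate 2, the higher of the 2 old adult arrays (adjusted p = 0.062).

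ptr-8 had 1.98, 2.55 and 3.03 in embryos, 11.6, 9.58 and 18.7 in young adults and 21.2 and 36.3 in old adults, 5.14-fold (adjusted p = 0.00084) and 11.2-fold (adjusted p = 0.00034) above embryos. ptr-20 had 2.04, 1.90 and 3.30 in embryos, 15.0, 23.1 and 13.3 in young adults and 24.2 and 15.7 in old adults, 7.11-fold (adjusted p = 0.00032) and 8.33-fold (adjusted p = 0.00052) above embryos. ptr-14 had 1.17, 1.10 and 1.53, then 2.69, 2.54 and 8.69, then 9.61 and 11.9 at the same stages, 8.54-fold higher in old adults than in embryos (adjusted p = 0.0034). In ptr-8 and ptr-14 no old adult value lay below a young adult value, yet the adult stages did not differ by the test (adjusted p = 0.11 and 0.15). ptr-12 was 5.89-fold higher in young adults (adjusted p = 0.00043) and 5.81-fold higher in old adults (adjusted p = 0.0010) than in embryos, and its adult stages overlapped. ptr-23, known for its part in the osmotic stress response, had 4 probe sets and a smaller step, 2.13-fold higher in old adults than in embryos (adjusted p = 0.0079), which did not pass with its highest probe set alone (log2 difference 0.26, adjusted p = 0.43), without rescaling (log2 difference 0.28, adjusted p = 0.36) or without old adult replicate 2 (adjusted p = 0.057). Without rescaling, ptr-8, ptr-12 and ptr-14 no longer passed in young adults against embryos (adjusted p = 0.11, 0.064 and 0.95).

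Other ptr genes were lower in adults than in embryos. ptr-4, which acts in moulting and in building the apical matrix, had 15.3, 14 and 14.8 in embryos and no adult value above 0.550, at least 9.71-fold lower in young adults (adjusted p = 0.011) and at least 16.1-fold lower in old adults (adjusted p = 0.018) than in embryos. The old adult call of ptr-4 was lost with its highest probe set alone (adjusted p = 0.23) and without either old adult array (adjusted p = 0.078 and 0.080). ptr-25 had 9.36, 7.84 and 9.54 in embryos, 0.948, 1.25 and 1.08 in young adults and 0.499 and 0.891 in old adults, at least 5.86-fold (adjusted p = 9.5e-05) and at least 9.71-fold lower (adjusted p = 0.00011). ptr-1, also linked with moulting, stayed above the noise level, with 7.55, 8.46 and 10.5 in embryos, 2.76, 2.38 and 3.05 in young adults and 2.43 and 1.59 in old adults, 3.23-fold lower in young adults (adjusted p = 0.00070) and 4.45-fold lower in old adults (adjusted p = 0.00051). ptr-2 and ptr-18 were above the noise level in embryos only and had bounds of at least 1.60-fold and 1.46-fold lower in young adults (adjusted p = 0.047 and 0.042). These calls held in 10 of 19 settings for ptr-2 and 9 of 18 for ptr-18, and among the losses were quantile normalization for both (adjusted p = 0.058 and 0.074) and leaving out shared-type probe sets for ptr-2 (log2 difference -1.39, adjusted p = 0.73). ptr-10, a gene of glia, had 3.13, 2.36 and 2.37 in embryos and no adult array above the noise level. It passed with the common floor (adjusted p = 0.0013 in young and 0.0029 in old adults) but not with the floor of 0.01 (adjusted p = 0.063 and 0.12). The common floor set all adult arrays of ptr-10 to the same value, so they added no spread, which can make a p-value smaller.

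Genes of related pathways were read from lists fixed together with the members. Of 8 moulting regulators, 5 were lower in young adults than in embryos (62.5%, against 22.5% of all genes), 3 in old adults (37.5%, against 17.8%), and none was called higher by limma in either (0 at an unadjusted p under 0.05). nhr-25, the nuclear receptor that acts with grl-21 and ptr-24, had 8.98, 8.85 and 6.79 in embryos, 1.76, 1.24 and 1.60 in young adults and 1.04 and 0.887 in old adults, 5.37-fold (adjusted p = 9.4e-05) and 8.48-fold lower (adjusted p = 9.7e-05) than embryos. Of 19 moulting matrix proteins and proteases, 11 were lower and 5 higher in young adults than in embryos (57.9% and 26.3%, against 22.5% and 31.2% of all genes) and 10 were lower and 5 higher in old adults (52.6% and 26.3%, against 17.8% and 27.1%). Other proteins with a sterol-sensing domain numbered 3, of which ncr-1, the Niemann-Pick C1 homologue, had 2.53, 2.10 and 2.70 in embryos, 5.42, 10.2 and 7.67 in young adults and 9.99 and 17.8 in old adults, 3.09-fold (adjusted p = 0.0035) and 5.50-fold higher (adjusted p = 0.0012) than embryos.

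sbp-1, the sterol regulatory factor SREBP, was 4.26-fold higher in young adults (adjusted p = 7.8e-05) and 5.78-fold higher in old adults (adjusted p = 9.7e-05) than in embryos, and tra-1, the Gli-type factor, passed no comparison. The patched or dispatched relatives che-14 and daf-6 were above the noise level in embryos only, and ptd-2 on no array. Among 6 genes of heparan sulfate and its proteoglycans, 2 were higher in old than in young adults (33.3%, against 2.74% of all genes). They were the glypican gene lon-2, by 2.21-fold (adjusted p = 0.039), and the syndecan gene sdn-1, by 1.68-fold (adjusted p = 0.029). None of the 6 was called lower by limma, and at an unadjusted p under 0.05 there were 3 higher and 1 lower. Of the 4 sterol hormone genes, 2 were higher and 1 lower in young adults than in embryos (against 31.2% and 22.5% of all genes) and 1 was higher and 1 lower in old adults (against 27.1% and 17.8%). No gene of the sterol-sensing, Gli and SREBP, sterol hormone, moulting regulator or patched-relative lists was called between old and young adults by limma, where unadjusted p under 0.05 gave 4 higher and 2 lower genes over these lists.

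Markers of cell types known for these genes were read beside them. The 2 measured seam markers, both lower in young and in old adults than in embryos by the test, had sums between 13 and 17.9 in embryos, between 0.0263 and 0.342 in young adults and between 0.0167 and 0.0174 in old adults, and 5 glia markers, of which ptr-10 is one, had overlapping sums in embryos and young adults, of 7.51 to 8.88, 6.68 to 10.4 and 5.46 to 6.43. Of the glia markers, 2 were higher and 1 lower in young adults than in embryos (40% and 20%, against 31.2% and 22.5% of all genes). In old adults 1 was higher and 1 lower (20% each, against 27.1% and 17.8%), so these counts lay near the shares of all genes. None was called between old and young adults by limma. Of the seam genes, ceh-16 was above the noise level on no adult array, whereas a probe set of egl-18 was above it on 1 young adult array and both old adult arrays. The gene value of egl-18, a median over probe sets, was still only 0.0165 and 0.0171 in old adults. The adult seam sums therefore do not give the size of the fall. With the common floor, 1 of the 2 seam markers was lower than in embryos in young adults, and 1 in old adults (against 32.6% and 29.0% of all genes tested). The part of these cell types in the lower wrt, grl and ptr values of adults was not tested.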

How the data were processed

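RNA of each pool was hybridised to 1 Affymetrix C. elegans array, and the authors deposited 1 intensity for each of 22548 probe sets and array, made with GeneChip Operating Software 1.2.0.037 per the labels, with negative values kept. Whether that software scaled the arrays is not given in the sources used here. A further deposited table, of the authors' own comparisons (fold changes and p-values), was not used. Replicates were separate pools, and only 2 old adult pools were arrayed. Arrays carry no read depth, and their number limits the precision.

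Intensities below 0.01 were set to 0.01 (the floor) and divided by the array median, log2 was taken, and the median over the 1 or more probe sets assigned to a single gene gave 17118 genes. Probe sets of the 80 members numbered 95, and 12 members had several. All 8 arrays were fitted with limma 3.58.1 (R 4.3.3, trended variance), with Benjamini-Hochberg adjustment over all genes at 0.05. This script was tested on simulated data. A gene was above the noise level where any of its probe sets was. Where the lower group was not above it on all its arrays, its values were raised to the noise level of each array and the fold given as "at least", and no fold was given where the higher group was not above it throughout or the bound was under 1.

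Members named were the up to 10 largest measured changes in each direction and comparison without overlap, plus members with a known role. Others, such as grl-4 and wrt-4, were chosen after their values were seen. The members, the gene lists and the noise rule were chosen with earlier results of these data known. Gene names came from the platform annotation and matched RefSeq (WBcel235) for 80 of 80 members, and RefSeq was used otherwise only for gene order. Alternatives were quantile normalization, no rescaling, other floors, a filter on dim genes, fits of 2 groups, a replicate block, no variance trend, other probe set choices and leaving out each array. No sequence is shown.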

Additional observations from a re-analysis of the deposited data

Results flagged for a closer look

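2 probe sets of these families were shared with other genes and stood outside all comparisons, yet rose above the noise level. The probe set shared by ptc-2 and ptc-1 reached 2.95 multiples of the array median, with 1.65, 1.63 and 1.23 in embryos, 0.538, 0.944 and 0.142 in young adults and 2.76 and 2.95 in old adults. It was above the noise level on 3 embryo arrays, no young adult array and 2 old adult arrays, and the 2 genes cannot be told apart on it. The probe set shared by grl-32, T24A6.1 and T07F10.5 reached 0.720, with 0.720, 0.569 and 0.211 in embryos, and was above the noise level on 2 embryo arrays and no adult array.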

How the results depend on the processing

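Between old and young adults, the 3 higher members became 8 with no rescaling, 8 with values raised to the noise level of each array, 5 with the filter on dim genes, 1 with only the 2 groups compared and 1 with the replicate block, and the 6 lower members became 2 with quantile normalization, 1 with no rescaling, 56 with values raised to each noise level, 3 with only the 2 groups, 3 with the replicate block, 2 with no variance trend and 3 without shared-type probe sets. Leaving out 1 array gave 1 to 8 higher and 1 to 6 lower. In young adults against embryos, the 18 higher became 6 with no rescaling, 50 with each noise level and 11 with the common floor, and the 18 lower became 34 with no rescaling and 9 without shared-type probe sets. In old adults against embryos, the 21 higher became 12, 49 and 13 with no rescaling, each noise level and no shared-type probe sets, and 12 to 19 without 1 array, and the 23 lower became 13 without shared-type probe sets. Only 58 of the 80 members could be tested without shared-type probe sets. The smaller counts there thus include members that dropped out, such as wrt-10 and wrt-2. Of the named calls still tested in that setting, 31 were the same and 3 no longer passed. Raising values to each array's own noise level sets undetected genes of different stages at different values, so its counts follow those levels (10292 genes of 17118 were then lower in old than in young adults). With no rescaling the median of all genes moved to 0.74 in old against young adults, -1.19 in young adults against embryos and -0.37 in old adults against embryos.

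4 log2 differences reversed: grl-21 in old against young adults (-0.016, adjusted p = 0.97) and wrt-8 in young adults against embryos (0.072, adjusted p = 0.75) with values raised to each noise level, and grl-6 in old against young adults (0.0038, adjusted p = 1) and ptc-1 in old adults against embryos (-0.17, adjusted p = 0.57) with no rescaling. Of 56 calls of named members, 29 were the same in each of the 19 settings in which the gene was tested. With the noise level at the 99th percentile, 13 members in young adults and 17 in old adults were above it on all arrays. Same-numbered arrays deviated together with correlations between -0.034 and 0.095, so the numbers were not taken as pairs, and the replicate block is given above as a count only. Detection was limited most in young adults, whose noise level was highest relative to the median.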
